A study of Mus musculus with 4 samples.

Results

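The genes described here are 7 core genes of the adherens junction, *Cdh1*, *Cdh2*, *Ctnnd1*, *Ctnnb1*, *Jup*, *Ctnna1* and *Vcl*, out of 19938 genes measured in ILC87-Ik1-ER cells treated with 4-hydroxytamoxifen (4OHT) or its vehicle ethanol (EtOH). They were chosen by name with their log2 fold changes between 4OHT- and EtOH-treated cells already in view, so that their own values in this comparison are given as a description, with no p-value for any of them. Each gene has 1 probe set that the array annotation assigns to a single symbol, and where another gene mentioned below has several, the one with the highest mean was taken. No filter on low values was applied, and all 7 genes had a value on all 4 arrays.

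ILC87 cells grew out of a thymic lymphoma whose host had floxed Ikaros alleles and a Cre transgene (genotype Ik f/f Lck-Cre+), so that Cre driven by the T-cell promoter of *Lck* deleted Ikaros. A retrovirus, MigR1:Ik1-ER, added full-length Ikaros1 joined to the part of the oestrogen receptor to which its ligand binds, together with GFP, and GFP+ cells were sorted. The strain is given as C57BL/6 in the sample labels, whereas the methods describe these mice on a mixed background. RNA was taken after 24 h in 100 nM 4OHT (2 arrays) or EtOH (2 arrays), and 150 ng of total RNA per sample was labelled for Affymetrix Mouse Gene ST arrays. All 4 arrays carry Ik1-ER, the EtOH arrays included, and no array of cells without Ik1-ER in 4OHT was analysed here. An effect of the ligand itself therefore cannot be told apart from an effect of nuclear Ik1-ER. The cells are 1 line from 1 tumour, and no source states that arrays 1 and 2 of a treatment are separate cultures. The p-values below therefore reflect the spread between these samples alone, and that spread may be technical.

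Adherens junctions join neighbouring cells through classical cadherins, whose outer parts bind each other between cells in the presence of calcium. Inside the cell the cadherin tail holds p120-catenin, which keeps the cadherin at the surface, and β-catenin or plakoglobin, which bring in α-catenin and through it the actin cytoskeleton. Vinculin is added to α-catenin where the junction is under tension, and free β-catenin also acts in the nucleus as a partner of TCF and LEF factors in Wnt signalling. In the T lineage E-cadherin is best known from early thymocytes and as a molecule of epithelial cells that lymphocytes bind.

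E-cadherin and p120-catenin mRNA were both several fold lower in 4OHT-treated cells, vinculin and αE-catenin were lower by smaller amounts, and β-catenin, plakoglobin and N-cadherin showed small or no differences. The values below are RMA expression values on a log2 scale, in which a difference of 1 is a doubling, and n is 2 arrays per treatment throughout. In a bulk sample, fewer cells with a transcript and less transcript per cell cannot be told apart.

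*Cdh1*, which encodes E-cadherin, had log2 values of 9.90 and 10.30 on the EtOH arrays and of 7.29 and 7.44 on the 4OHT arrays. Both 4OHT arrays lay far below both EtOH arrays, with a smallest gap of 2.47 between an EtOH and a 4OHT array against a gap of 0.40 between the EtOH arrays. The means were 10.10 and 7.36, a log2 fold change of −2.74 (standard error 0.16) or a 6.68-fold lower level with 4OHT. Of all 19938 genes, 7 had a larger decrease. *Cdh2*, which encodes N-cadherin, the classical cadherin of nerve and muscle, had values of 5.14 and 5.12 with EtOH and of 5.26 and 5.08 with 4OHT. These values overlap, and they lie well under the array medians of 7.11 to 7.16. No detection calls accompany the deposited values, and *Cdh2* could not be told from background.

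*Ctnnd1* encodes p120-catenin, which binds the cadherin tail next to the membrane. Its log2 values were 9.98 and 10.12 with EtOH and 7.51 and 7.46 with 4OHT. The 2 arrays of each treatment lay close together and the treatments were 2.47 apart at their nearest. The log2 fold change was −2.56 (standard error 0.084), a 5.92-fold lower level, and 12 genes had a larger decrease.

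*Ctnnb1*, which encodes β-catenin, had log2 values of 12.17 and 12.14 with EtOH and of 11.85 and 12.04 with 4OHT. The 4OHT arrays were both below the EtOH arrays, but by as little as 0.09, while they differed from each other by more than that. The log2 fold change was −0.21 (standard error 0.095), a 1.16-fold lower level. *Jup*, which encodes plakoglobin, the relative of β-catenin that also serves in desmosomes, had values of 7.03 and 7.03 with EtOH and of 7.22 and 7.15 with 4OHT. It was the only one of the 7 genes whose 4OHT arrays both lay above the EtOH arrays, with a log2 fold change of 0.16 (standard error 0.073) at a level near the array medians.

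*Ctnna1* encodes αE-catenin, the link from β-catenin to actin. Its log2 values were 9.94 and 9.79 with EtOH and 9.24 and 9.37 with 4OHT, a log2 fold change of −0.56 (standard error 0.093) or a 1.48-fold lower level. *Vcl* encodes vinculin, which reinforces both adherens junctions and the integrin-based focal adhesions. Its values were 9.49 and 9.60 with EtOH and 8.56 and 8.57 with 4OHT, a log2 fold change of −0.98 (standard error 0.077) or a 1.98-fold lower level. For both genes the treatments were apart on all arrays, by at least 0.43 for *Ctnna1* and 0.93 for *Vcl*. Decreases larger than that of *Ctnna1* were seen for 676 genes, and larger than that of *Vcl* for 211.

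**Figure D1:**
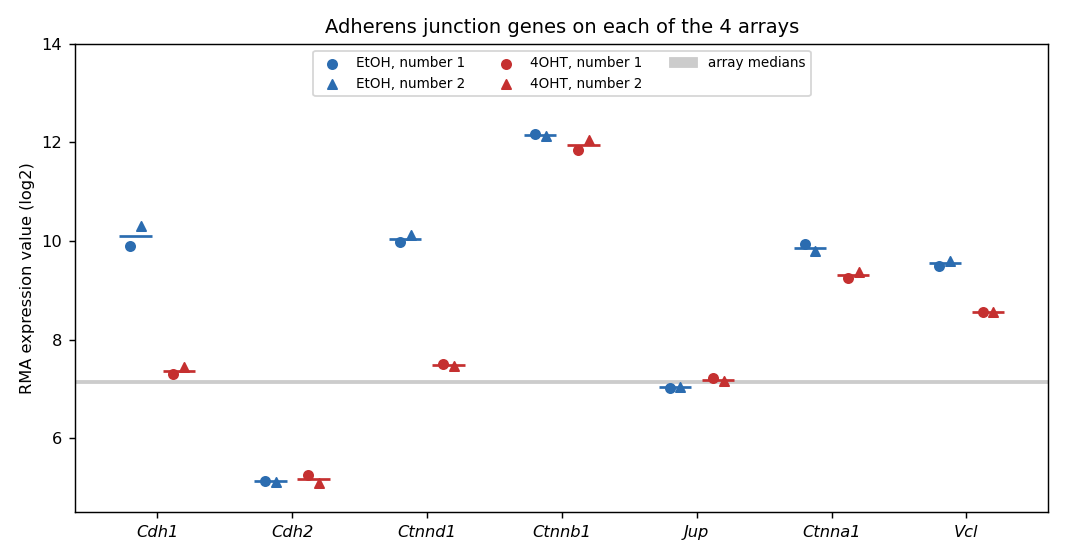
RMA expression values (log2, vertical axis) of the 7 adherens junction genes on each of the 4 arrays, with EtOH in blue, 4OHT in red, short lines for the means of 2 arrays and a grey band for the array medians. The 4OHT values of Cdh1 and Ctnnd1 lie at least 2.47 below their EtOH values, those of Vcl, Ctnna1 and Ctnnb1 lie below by less, those of Jup lie slightly above, and those of Cdh2 overlap. Heights of different genes are not comparable, because each has its own probes.

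Taken as counts, 5 of the 7 genes had both 4OHT arrays below both EtOH arrays, an order that 24.5% of all genes showed, and 1 had both above, as 32.1% of all genes did. In the limma fit over all probe sets with Benjamini-Hochberg adjustment, 3 of the 7 (*Cdh1*, *Ctnnd1* and *Vcl*) fell among the genes called lower at an adjusted p under 0.05 and 0 among those called higher. Across all genes 4.23% were called, 2.99% lower and 1.23% higher, and 20.4% had an unadjusted p under 0.05. Since the 7 genes were picked with this contrast known, nothing is read from these counts. The median log2 fold change was −0.56 over the 7 genes and 0.03 over all genes. Under the alternative settings, each array left out in turn included, the log2 fold change of *Cdh1* ranged from −2.94 to −2.54, that of *Ctnnd1* from −2.63 to −2.50 and that of *Vcl* from −1.03 to −0.93. *Ctnna1* ranged from −0.63 to −0.49, *Ctnnb1* from −0.31 to −0.11 and *Jup* from 0.12 to 0.19, and the sign turned for *Cdh2* alone, which ranged from −0.05 to 0.13. The ends of these ranges all come from fits with an array left out. With 1 probe set per gene and equal groups, a block, a filter, an intensity trend or averaged probe sets cannot change these log2 fold changes.

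**Figure D2:**
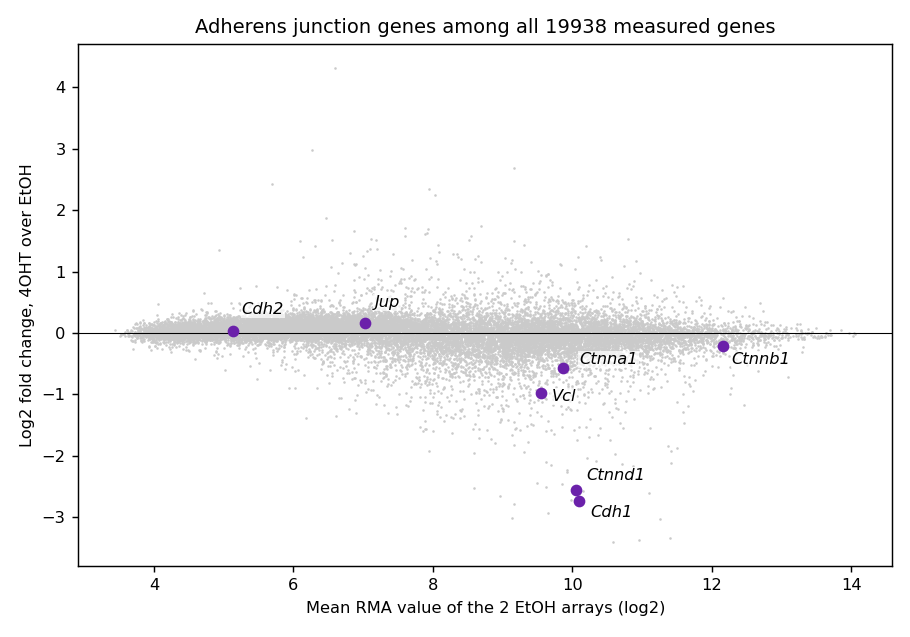
Log2 fold change of 4OHT over EtOH (vertical axis) against the mean log2 RMA value of the 2 EtOH arrays (horizontal axis) for all 19938 genes in grey, with the 7 adherens junction genes in purple. Cdh1 at −2.74 and Ctnnd1 at −2.56 lie near the lower edge of all genes, where 7 and 12 genes have larger decreases, while Cdh2, Jup and Ctnnb1 lie within the grey band around 0.

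The promoters of *Ctnnd1* and *Vcl*, which were lower, are shown because Ikaros binds DNA at short motifs around the letters GGAA. RefSeq promoter windows of 300 bases, 250 before and 50 after the start of transcription, were searched on both strands for GGGAA and AGGAA, which share the letters GGAA. The windows searched were those of *Ctnnd1*, *Ctnnb1*, *Jup* and *Vcl*. Those of *Cdh1*, *Cdh2* and *Ctnna1*, of which *Cdh1* and *Ctnna1* were lower too, were not analysed here. In the lines below, written 5′ to 3′ on the strand of the gene, the capitals mark the matches, and TTCCT is AGGAA read on the other strand. The windows lie at chr2:84658928-84659227 and chr2:84650691-84650990 (minus strand) for the 2 starts of *Ctnnd1* and at chr14:20929148-20929447 (plus strand) for *Vcl*, in the mouse build GRCm38.p6.
Ctnnd1, start 1: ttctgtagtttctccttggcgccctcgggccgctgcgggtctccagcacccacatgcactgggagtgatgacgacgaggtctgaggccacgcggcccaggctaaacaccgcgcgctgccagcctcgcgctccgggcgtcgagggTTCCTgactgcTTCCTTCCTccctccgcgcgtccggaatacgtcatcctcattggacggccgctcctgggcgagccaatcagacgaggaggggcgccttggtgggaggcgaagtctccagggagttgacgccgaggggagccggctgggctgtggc
Ctnnd1, start 2: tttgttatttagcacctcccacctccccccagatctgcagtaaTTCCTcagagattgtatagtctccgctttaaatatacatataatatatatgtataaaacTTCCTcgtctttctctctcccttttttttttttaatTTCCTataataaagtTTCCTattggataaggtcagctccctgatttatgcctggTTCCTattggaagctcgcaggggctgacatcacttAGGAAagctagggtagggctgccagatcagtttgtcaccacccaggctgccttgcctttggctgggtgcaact
Vcl: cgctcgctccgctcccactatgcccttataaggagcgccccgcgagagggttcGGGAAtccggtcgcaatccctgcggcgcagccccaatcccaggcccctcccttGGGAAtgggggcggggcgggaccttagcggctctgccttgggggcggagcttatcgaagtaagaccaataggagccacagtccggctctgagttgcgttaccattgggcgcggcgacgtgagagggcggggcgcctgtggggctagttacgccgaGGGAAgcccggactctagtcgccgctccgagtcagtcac

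The first *Ctnnd1* window held 3 AGGAA matches, at positions −106, −95 and −91 from the start, of which the last 2 overlap by 1 base, and no GGGAA match. Its second window held 6 AGGAA matches. The *Vcl* window held 3 GGGAA matches, at positions −197, −144 and 11, and no AGGAA match. The windows of the 2 starts of *Ctnnb1* held 2 matches and 1 match, and that of *Jup* held 0. Such short motifs are common: of 32851 windows of this length 62.7% held GGGAA, 66.7% held AGGAA and 87.1% held either. At least 3 matches were present in 38.1% of all windows and at least 5 in 8.57%. A match is a string of letters and not a measured binding site, and the array gives *Ctnnd1* 1 value that does not tell its starts apart.

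Among measured genes in the RefSeq order, 0 of the 14 neighbours of the 7 genes were called at a limma adjusted p under 0.05. An unadjusted p under 0.05 was seen for 1, *Tfpi*. Of all genes 4.23% were called and 20.4% had an unadjusted p under 0.05, so that 0 calls among 14 genes say little. *Cdh3*, which encodes P-cadherin and lies beside *Cdh1*, had log2 values of 5.88 and 5.78 with EtOH and of 5.91 and 5.91 with 4OHT, a log2 fold change of 0.08 (limma adjusted p = 0.619). *Tango6*, on the other side of *Cdh1*, had a log2 fold change of −0.09 (limma adjusted p = 0.689). *Tfpi* encodes an inhibitor of the coagulation pathway and is a measured neighbour of *Ctnnd1*. Its log2 values were 9.49 and 9.67 with EtOH and 9.04 and 8.97 with 4OHT (log2 fold change −0.58, limma adjusted p = 0.0569).

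The genes whose pattern over the 4 arrays was most like that of *Cdh1*, by the root mean square distance of log2 values centred on each gene's mean, were *Gpr83* at 0.031, and *Zfp948* and *Ifitm3* at 0.138 each. *Gpr83* encodes an orphan G-protein-coupled receptor, and its values were 9.80 and 10.18 with EtOH and 7.16 and 7.39 with 4OHT. Nearest to *Ctnnd1* were *Zfp948* at 0.050, *Dock1* at 0.058 and *Smpdl3b* at 0.088. Nearest to *Vcl* were *Vwa5a* at 0.020, *Acadsb* at 0.020 and *Slc16a10* at 0.027. *Zfp948*, a zinc finger gene near both *Cdh1* and *Ctnnd1*, had values of 9.50 and 9.76 with EtOH and of 7.13 and 7.10 with 4OHT. Gene models (symbols of Gm or LOC with a number, or ending in Rik) and small RNAs were left out of these rankings. The distances rest on 4 arrays of 2 conditions and describe likeness of these values alone.

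The lists of genes from here on were chosen with earlier results of these data known, so that their calls and shares are given as a description. Among 37 other cadherins, 1 gene was lower, 1 was higher and 35 did not pass. This is a share called of 5.41%, close to the 4.23% of all genes, and the median log2 fold change was 0.07 beside 0.03 over all genes. *Pcdh7*, a protocadherin, had log2 values of 8.61 and 8.62 with EtOH and of 7.77 and 7.51 with 4OHT and thus fell (log2 fold change −0.97, limma adjusted p = 0.0272). *Cdh24*, a classical-type cadherin, rose by 0.74 on the log2 scale (limma adjusted p = 0.0478), a call lost when the probe sets of a gene were averaged. The other 35 cadherins had log2 fold changes between −0.31 and 0.27. Of all 37, 7 had a mean EtOH value of at least 7, so that most had less room to show a decrease. Among 11 other catenins and plakophilins, 1 was higher and 10 did not pass (median 0.10), a share called of 9.09%. The one called was *Arvcf*, a close relative of p120-catenin, with values of 8.22 and 8.08 with EtOH and of 8.71 and 8.85 with 4OHT (log2 fold change 0.63, limma adjusted p = 0.0492). It did not pass after another quantile normalization, at equal array medians, with an intensity trend or with averaged probe sets. *Ctnnbip1*, which encodes an inhibitor of β-catenin binding to TCF factors, had a log2 fold change of 0.36 (limma adjusted p = 0.0981).

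Nectins are immunoglobulin-like adhesion molecules that bind actin through afadin and form adherens junctions together with cadherins. Of 7 genes of this system, 2 fell, 1 rose and 4 did not pass, with a median of 0.18. This is a share called of 42.9% in a short list, beside 4.23% of all genes. *Nectin1* had log2 values of 9.22 and 9.39 with EtOH and of 8.16 and 8.32 with 4OHT (log2 fold change −1.06, limma adjusted p = 0.0200). *Afdn*, which encodes afadin, had values of 10.17 and 10.16 with EtOH and of 9.30 and 9.44 with 4OHT (log2 fold change −0.79, limma adjusted p = 0.0248). The gene that rose was *Pvr*, which encodes the nectin-like poliovirus receptor CD155, with values of 6.64 and 6.48 with EtOH and of 8.00 and 8.13 with 4OHT (log2 fold change 1.51, limma adjusted p = 0.0104). The lower genes thus encode a nectin and the linker of nectins to actin, and the higher one a receptor also known as a ligand of lymphocyte receptors.

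Proteins that tie junctions or focal adhesions to actin accounted for 4 lower and 0 higher genes among 26 measured (median 0.02), a share called of 15.4% beside 4.23% of all genes. An unadjusted p under 0.05 was seen for 10 of the 26, where 20.4% of all genes had one. *Parva*, which encodes α-parvin, an actin-binding partner of integrin-linked kinase, had log2 values of 8.69 and 8.87 with EtOH and of 7.32 and 7.08 with 4OHT (log2 fold change −1.58, limma adjusted p = 0.0147). *Lima1*, which encodes EPLIN, a protein that links α-catenin to actin, had values of 8.57 and 8.57 with EtOH and of 7.08 and 6.94 with 4OHT (log2 fold change −1.56, limma adjusted p = 0.00868). The other lower genes were *Ajuba*, a LIM protein of junctions (log2 fold change −0.76, limma adjusted p = 0.0269), and *Actn1*, which encodes the actin cross-linker α-actinin 1 (log2 fold change −0.52, limma adjusted p = 0.0384). Among those that did not pass, *Wtip*, a relative of *Ajuba*, had a log2 fold change of −0.77 (limma adjusted p = 0.0710) and *Tln1*, which encodes the vinculin partner talin, one of 0.09 (limma adjusted p = 0.577).

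Of 27 genes for cadherin trafficking and partners of p120-catenin, 3 fell, 1 rose and 23 did not pass (median −0.05). The share called was 14.8%, beside 4.23% of all genes. *Plekha7*, whose product anchors microtubules at junctions through p120-catenin, had log2 values of 7.99 and 8.03 with EtOH and of 7.29 and 7.24 with 4OHT (log2 fold change −0.75, limma adjusted p = 0.0209). The Src family kinase genes *Yes1* (log2 fold change −0.67, limma adjusted p = 0.0392) and *Fyn* (log2 fold change −0.60, limma adjusted p = 0.0379) were lower too. *Iqgap1*, which encodes a scaffold of Rac1 and Cdc42 that binds E-cadherin and β-catenin, rose by 0.57 on the log2 scale (limma adjusted p = 0.0398). The E3 ligase gene *Cbll1*, also called Hakai, had a log2 fold change of 0.03 (limma adjusted p = 0.910), and *Zbtb33*, which encodes the p120-binding repressor Kaiso, one of −0.08 (limma adjusted p = 0.743). Over these 5 lists of relatives and partners together, 10 of 108 genes were lower (9.26%) and 4 were higher (3.70%), beside 2.99% and 1.23% of all genes, and their median of 0.04 was close to that of all genes. This is a description of listed genes, with no test of the lists.

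**Figure D3:**
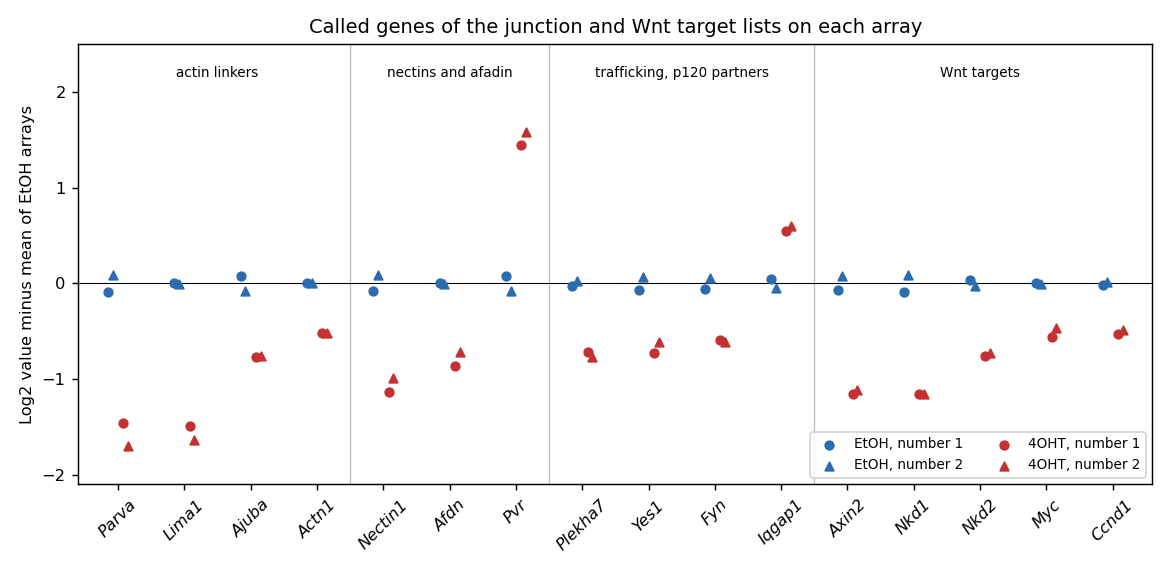
Log2 RMA value of each array minus the mean of the 2 EtOH arrays (vertical axis) for 16 called genes of the actin linker, nectin, trafficking and Wnt target lists, with EtOH in blue and 4OHT in red. The 4OHT values of Parva and Lima1 lie about as far from the EtOH values as that of Pvr does in the other direction, and the 4OHT values of each gene lie apart from its EtOH values, as these genes were picked for having been called.

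Transcriptional regulators of the E-cadherin gene were listed because several of them are known repressors. Of 20 measured, 1 fell, 1 rose and 18 did not pass (median 0.05), a share called of 10.0% beside 4.23% of all genes. By limma, 6 of the 20 had an unadjusted p under 0.05, where 20.4% of all genes had one. *Tcf4*, an E protein that can repress *Cdh1*, had log2 values of 10.93 and 11.00 with EtOH and of 10.06 and 10.02 with 4OHT (log2 fold change −0.92, limma adjusted p = 0.0156). *Grhl3*, a grainyhead factor of epithelia, rose by 0.62 on the log2 scale (limma adjusted p = 0.0437). Among the best known repressors, *Zeb1* had values of 10.93 and 10.96 with EtOH and of 11.32 and 11.38 with 4OHT (log2 fold change 0.40, limma adjusted p = 0.0723). It passed the test among probe sets with 1 symbol and with an intensity trend. These fits called 2741 and 919 of all genes, against 843 over all probe sets without a trend. For *Snai1*, *Snai2*, *Zeb2* and *Twist1* the log2 fold changes were 0.11, −0.16, −0.14 and 0.08, and none passed. *Runx1* had a log2 fold change of −0.37 (limma adjusted p = 0.105).

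Of 21 genes for the β-catenin destruction complex and for TCF and LEF factors, 0 were called by limma and 5 had an unadjusted p under 0.05 (median −0.08). With 4.23% of all genes called and 20.4% under that unadjusted p, these counts do not set the list apart. *Axin1*, *Apc* and *Gsk3b*, which encode parts of the complex that marks β-catenin for degradation, had log2 fold changes of 0.03, −0.01 and −0.08. *Lef1*, the nuclear partner of β-catenin, had a log2 fold change of −0.11 (limma adjusted p = 0.483). The largest differences in this list were those of *Gsk3a* at 0.41 and *Dvl3* at −0.39.

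Genes known as targets of Wnt signalling were lower in 5 cases and higher in 0 among 17 measured, with 12 that did not pass and a median of 0.02. Of all genes 2.99% were lower and 1.23% higher. *Nkd1*, which encodes a feedback inhibitor that binds Dishevelled, had log2 values of 10.35 and 10.53 with EtOH and of 9.29 and 9.29 with 4OHT (log2 fold change −1.15, limma adjusted p = 0.0156). *Axin2*, the feedback scaffold of the destruction complex, had values of 10.11 and 10.26 with EtOH and of 9.03 and 9.07 with 4OHT (log2 fold change −1.14, limma adjusted p = 0.0147). *Nkd2*, the relative of *Nkd1*, fell by 0.74 on the log2 scale (limma adjusted p = 0.0212). The growth genes *Myc* (log2 fold change −0.52, limma adjusted p = 0.0478) and *Ccnd1* (log2 fold change −0.51, limma adjusted p = 0.0421) also passed, but neither did after another quantile normalization. *Myc*, *Ccnd1* and *Cd44* have many inputs besides β-catenin. *Cd44*, a receptor for hyaluronan, had a log2 fold change of 0.61 and did not pass (limma adjusted p = 0.0701). These values stand beside the small difference of *Ctnnb1* itself, and β-catenin protein was not measured on these arrays.

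**Figure D4:**
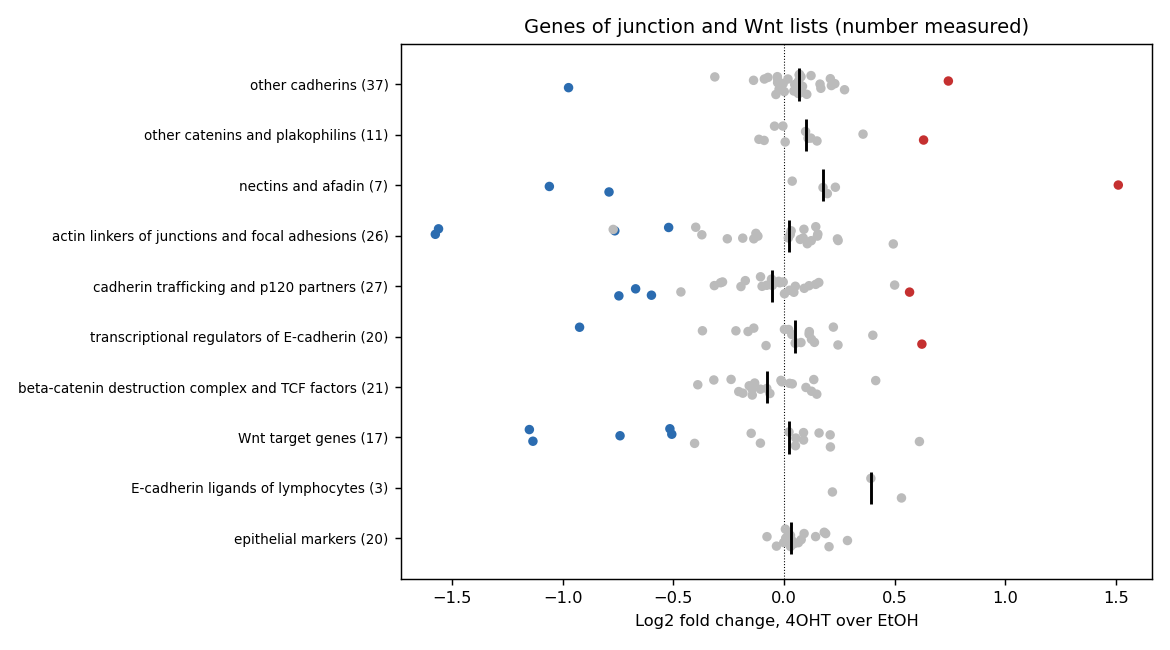
Log2 fold change of 4OHT over EtOH (horizontal axis) for each measured gene of 10 lists (rows, with the number measured). Blue and red points are genes called lower and higher at a limma adjusted p under 0.05, grey points did not pass, and black bars are medians; the medians of the junction, Wnt and epithelial lists lie between −0.08 and 0.18, that of the 3 ligand genes lies at 0.39, and no epithelial marker passed.

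Lymphocyte molecules that bind E-cadherin on other cells were also listed. *Itgae* encodes CD103, the α-subunit of the integrin that binds E-cadherin. It had log2 values of 6.61 and 6.39 with EtOH and of 6.96 and 7.11 with 4OHT, without overlap (log2 fold change 0.53, limma adjusted p = 0.0944). Its partner *Itgb7* had a log2 fold change of 0.39 (limma adjusted p = 0.131), and the inhibitory receptor gene *Klrg1* one of 0.22 (limma adjusted p = 0.423). None of the 3 passed over all probe sets, where 4.23% of all genes did. By limma, 2 had an unadjusted p under 0.05, as 20.4% of all genes did. *Itgae* and *Itgb7* passed in a fit of probe sets with 1 symbol alone. That fit called 2741 of all genes, against 843 over all probe sets, so that a pass there says little.

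E-cadherin marks epithelial cells in most tissues, and markers of the cell types that a tumour-derived culture could hold were therefore set beside it. Of 20 epithelial markers, 0 passed by limma and 0 had an unadjusted p under 0.05, with log2 fold changes from −0.08 to 0.29. Their mean EtOH values lay between 4.80 (*Cldn1*) and 7.61 (*Krt8*), *Epcam* stood at 5.91 with EtOH and 6.11 with 4OHT, and their summed linear signal was 2018 to 2089 on the EtOH arrays and 2123 to 2161 on the 4OHT arrays. Only 6 of the 20 had a mean EtOH value of at least 7, so that most had less room to show a decrease. Among 13 fibroblast and endothelial markers, 4 had an unadjusted p under 0.05 and 1 was lower, *Pdgfrb*, which encodes a receptor for platelet-derived growth factor (log2 fold change −1.92, limma adjusted p = 0.0081). The summed signal of that list was 4515 to 4723 with EtOH and 2902 to 2961 with 4OHT, and without *Pdgfrb* it was 1835 to 1910 and 2158 to 2255. Erythroid markers gave 0 calls among 7 (0 at an unadjusted p under 0.05, limma), with sums of 645.8 to 667.4 and 665.4 to 686.1. B-cell and myeloid markers gave 1 lower gene, *Lyz2* (log2 fold change −1.24, limma adjusted p = 0.0104), and 1 higher gene, *Itgam* (log2 fold change 0.68, limma adjusted p = 0.0239), among 14, of which 4 had an unadjusted p under 0.05, with sums of 966.4 to 1028 and 1037 to 1050. Across all genes 4.23% were called and 20.4% had an unadjusted p under 0.05 by limma, so that 0 calls in lists this short say little. The part of these markers in the results was not tested.

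As a check of the label, 14 T-cell markers had mean EtOH values between 8.78 (*Rag2*) and 13.29 (*Cd3e*). Of these, 1 was lower, *Cd3d* (log2 fold change −0.94, limma adjusted p = 0.0172), and 13 did not pass. The share called was 7.14%, beside 4.23% of all genes. The summed signals were 54890 to 55930 with EtOH and 52300 to 52830 with 4OHT. By limma, 10 of the 14 had an unadjusted p under 0.05, where 20.4% of all genes had one. *Ptprc* (log2 fold change 0.50) and *Cd3g* (log2 fold change −0.49) passed at a minimum mean of 6, among probe sets with 1 symbol and with an intensity trend. These fits called 1149, 2741 and 919 of all genes, against 843 without them. *Ikzf1*, the gene of Ikaros, had log2 values of 12.76 and 12.79 with EtOH and of 12.91 and 12.78 with 4OHT (limma adjusted p = 0.698). Whether this probe set reads the Ik1-ER transcript is not stated in the sources, and 4OHT acts on the fusion protein, so that these values do not check its activation. Arrays of one treatment correlated at r = 0.994 to 0.996, and those of opposite treatments at 0.989 to 0.990, over all probe sets, which are not independent of each other.

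Many calls on partner genes were lost when a single array was left out. Without EtOH replicate 1 or without EtOH replicate 2, 0 genes of any list and 0 of all genes were called by limma, against 843 of all genes with 4 arrays. Without 4OHT replicate 1 there were 241 such genes and without 4OHT replicate 2 there were 79. Of the partner genes called, *Lima1* was called in 2 of these 4 fits and *Parva*, *Pvr*, *Pcdh7*, *Tcf4* and *Axin2* in 1 each.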

How the data were processed

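RNA of 4 samples, 2 with EtOH and 2 with 4OHT, was hybridised to Affymetrix Mouse Gene ST arrays. The deposited file holds log2 values of 35556 probe sets, made by the authors with RMA in Affymetrix Expression Console 1.1, as far as the submitters' notes on processing name these tools. RMA subtracts background, gives all arrays one distribution by quantile normalization and combines the probes of a set. A change shared by most genes is thereby hidden, and differences between low values shrink. The genome build of the array design was not given in the sources used here. Treatments and numbers were taken from the sample labels.

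The comparison of treatments used limma 3.58.1 in R 4.3.3 (a linear model with moderated variances, two-sided, no filter, no block), with Benjamini-Hochberg adjustment over all probe sets and a threshold of 0.05. Gene symbols come from the array annotation (21789 probe sets with 1 symbol, 1621 with several, 12146 with none listed here), and 21698 were brought up to date through RefSeq. Listed genes without a probe set of 1 symbol were not analysed here. The number of arrays limits the precision. The script was tested on simulated arrays.

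The 7 genes and the 14 other lists were chosen with earlier results of these data known. Named were the 7 genes, up to 4 called genes per list with the largest change, up to 2 that did not pass where at most 1 did, the 3 nearest patterns of *Cdh1*, *Ctnnd1* and *Vcl*, and *Ikzf1*. Other named genes were chosen after their values were seen. Alternatives were equal array medians, a repeated quantile normalization, a block on the sample number, probe sets with 1 symbol alone, a minimum mean log2 value of 6, an intensity trend, averaged probe sets, a threshold of 0.01 and each array left out in turn.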

Additional observations from a re-analysis of the deposited data

How the results depend on the processing

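Over 72 results, 615 of the alternative values were kept, 84 counts moved further, 145 single calls were lost and 19 were gained. Changes of direction were counted only for genes called in the limma fit of all 4 arrays over all probe sets, and 0 were found. The sign of *Cdh2*, which was not called, turned without 4OHT replicate 1. A single call was kept on the same side of the threshold, and a count if equal or within 1.5 times. A log2 fold change of an adherens junction gene was kept within the pooled standard deviation of its arrays, whether or not the gene was still called. With 2 arrays per treatment, leaving an array out cannot move it beyond that spread. Only another quantile normalization or equal array medians could have done so, as the other fits leave the value identical. Most of these kept values were therefore fixed in advance and say nothing about robustness. The numbers below are genes called at an adjusted p under 0.05 from limma unless stated. With 4 arrays in the fit the residual degrees of freedom were 2, and dim genes such as *Cdh2* carry no detection calls; causes of the moves were not tested.

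With the sample number as a replicate block, 30 of all genes were called (843 without it), 2 of them among the 7 adherens junction genes, which were chosen with this contrast known, and 0 were called of the other cadherins, other catenins, nectins, actin linkers, trafficking genes, E-cadherin regulators, Wnt targets, fibroblast and endothelial, B-cell and myeloid, and T-cell markers. The deviations of same-numbered arrays had a correlation of −0.134, and the sources do not say what a number marks, so that no pairing was assumed. With crossed numbers as a replicate block, a pairing chosen after seeing the data, 535 of all genes and 3 of the 7 were called.

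Among probe sets with 1 symbol alone, 2741 of all genes were called, with 2 other catenins, 8 actin linkers, 8 trafficking genes, 4 regulators, 3 genes of the destruction complex list, 2 ligands, 3 fibroblast and endothelial and 5 T-cell markers. Another quantile normalization left 0 other catenins and 3 Wnt targets, and equal array medians left 0 other catenins. An intensity trend gave 0 other catenins, 1 destruction complex gene and 4 T-cell markers. Averaged probe sets gave 1 other cadherin and 0 other catenins, and a minimum mean of 6 gave 3 T-cell markers. Of the 7 genes, 4 were called among probe sets with 1 symbol and 4 at the minimum mean of 6, *Ctnna1* being added in both. At an adjusted p under 0.01, 73 of all genes, 2 of the 7 genes and 1 actin linker passed, with 0 of the other cadherins, other catenins, nectins, trafficking genes, regulators, Wnt targets, B-cell and myeloid, and T-cell markers.

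With each array left out in turn, 0 to 241 of all genes and 0 to 2 of the 7 genes were called, as were 0 to 2 actin linkers, 0 to 1 each of the other cadherins, nectins, regulators, Wnt targets, fibroblast and endothelial, and B-cell and myeloid markers, and 0 other catenins, trafficking genes and T-cell markers; a treatment with 1 array left was taken to have the spread of the other.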
